A study of Homo sapiens with 6 samples.

Results

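IFIT1, IFIT2, IFIT3 and IFIT5 encode the interferon-induced proteins with tetratricopeptide repeats, a family of antiviral proteins, and are 4 of the 18132 genes measured by a probe set of their own. They were chosen by name, through every probe set annotated with 1 of these symbols and no other: 1 for IFIT1, 2 for IFIT2, 1 for IFIT3 and 2 for IFIT5, or 6 of the 49293 probe sets tested. All 6 were followed, with no filter on signal. The arrays were hybridized with RNA of A549, a human lung adenocarcinoma cell line. The study asked how silencing LINC00525, a long noncoding RNA, alters the transcripts of this line. The 3 arrays titled sh_ctrl are negative controls for which the treatment text names a scrambled sequence, and the 3 titled sh_LINC00525, called knockdown arrays here, are from cells with LINC00525 lowered. The titles say "sh" and the treatment text says siRNA, and the genotype given for knockdown replicate 2 is LINC00526 downregulated and for replicate 3 LINC00527 downregulated. Neither the reagent sequences, the time after treatment nor whether the replicates were separate cultures is stated, so the spread behind each p-value is that of these arrays and may be technical.

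IFIT genes are usually low in unstimulated cells and rise when RNA sensors or interferon receptors signal. Receptor signalling works through ISGF3, a transcription factor complex that contains IRF9 and binds a DNA motif called the interferon-stimulated response element, and sensors can also act directly through interferon regulatory factors such as IRF3. The proteins bind RNA that looks foreign and keep it from being translated. IFIT1 binds messenger RNA whose cap lacks ribose methylation on the neighbouring nucleotide, IFIT5 binds RNA with a bare triphosphate end, IFIT2 binds RNA rich in A and U and can promote cell death, and IFIT3 binds IFIT1 and strengthens its hold on capped RNA. IFIT1B is a related gene of the same cluster that is not known as an interferon-induced gene in people. It was kept as a comparison.

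The promoters are shown because the members share a motif there. For IFIT1, IFIT3, IFIT5 and IFIT1B the RefSeq promoter table (build GRCh38.p14) holds windows from 250 bases before to 50 after a start of transcription, with 2 starts for IFIT3. IFIT2 is not listed. The 200 bases before each start are printed 5′ to 3′, with capitals marking matches to GAAANNGAAA, the core of the response element, searched on both strands. All of the matches had the core on the opposite strand, so on the printed strand they read TTTCNNTTTC.
IFIT1 (chr10:89392423-89392622, + strand): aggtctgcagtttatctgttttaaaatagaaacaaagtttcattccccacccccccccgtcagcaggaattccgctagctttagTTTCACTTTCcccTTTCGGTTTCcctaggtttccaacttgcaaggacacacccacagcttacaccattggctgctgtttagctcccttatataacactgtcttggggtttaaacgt
IFIT3, upstream start (chr10:89327797-89327996, + strand): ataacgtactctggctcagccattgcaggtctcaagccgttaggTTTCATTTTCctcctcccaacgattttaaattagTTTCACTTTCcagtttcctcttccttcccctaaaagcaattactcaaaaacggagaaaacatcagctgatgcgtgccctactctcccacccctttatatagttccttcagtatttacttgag
IFIT3, downstream start (chr10:89332329-89332528, + strand): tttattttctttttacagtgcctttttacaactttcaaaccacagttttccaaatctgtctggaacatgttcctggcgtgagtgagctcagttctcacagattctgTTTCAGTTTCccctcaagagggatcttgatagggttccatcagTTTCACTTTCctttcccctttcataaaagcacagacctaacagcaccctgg
IFIT5 (chr10:89414368-89414567, + strand): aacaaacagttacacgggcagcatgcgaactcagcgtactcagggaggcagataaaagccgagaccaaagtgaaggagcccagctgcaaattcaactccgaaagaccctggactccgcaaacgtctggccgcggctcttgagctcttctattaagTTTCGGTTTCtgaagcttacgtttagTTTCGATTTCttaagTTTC
IFIT1B (chr10:89377856-89378055, + strand): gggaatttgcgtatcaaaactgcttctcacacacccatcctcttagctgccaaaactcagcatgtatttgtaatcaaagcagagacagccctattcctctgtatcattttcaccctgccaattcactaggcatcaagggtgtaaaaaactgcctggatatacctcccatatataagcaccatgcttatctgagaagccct

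The 300-base windows of IFIT1 and of both IFIT3 starts held 2 matches each, and that of IFIT5 held 3, the last of which begins 4 bases before the start and runs past it, so that only its opening letters are printed. IFIT1B had 0. Over all 35116 windows of this length in the table, 3.57% held at least 1 match, 0.259% at least 2 and 0.037% at least 3. The windows of IFIT1 and of both IFIT3 starts shared the version TTTCACTTTC (GAAAGTGAAA on the other strand), which 0.202% of all windows held. The IFIT5 matches read TTTCGGTTTC, TTTCGATTTC and TTTCAGTTTC, and TTTCGGTTTC was also the other match of IFIT1. The matches began 116 and 103 bases before the start of IFIT1, 156 and 122 before the upstream start of IFIT3, 94 and 51 before its downstream start, and 45, 19 and 4 before that of IFIT5. A match is a description of the letters and not evidence of binding.

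**Figure D1:**
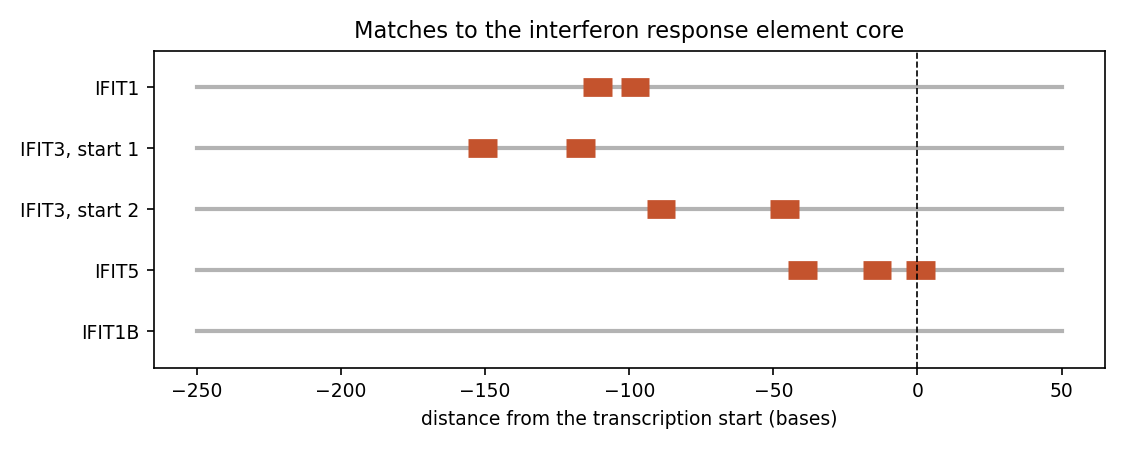
Positions of matches to the response element core (orange blocks) in the promoter windows of 4 genes of the IFIT cluster. The horizontal axis is the distance in bases from the start of transcription (dashed line), and grey lines mark the window searched, from 250 bases before to 50 after. Matches of IFIT1 and IFIT3 lie 156 to 42 bases before the start, those of IFIT5 lie from 45 bases before the start to just past it, and IFIT1B has 0.

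The silenced transcript was lower on the knockdown arrays, though close to background. LINC00525 was at 3.86, 3.74 and 3.97 log2 units on the controls and at 3.67, 3.45 and 3.54 on the knockdown arrays, so the groups did not overlap (log2 change -0.30 ± 0.075 SE, limma adjusted p = 0.0422 over all probe sets). That call was lost without control replicate 1 or 3 or knockdown replicate 2 or 3 (adjusted p of 0.101 to 0.124). CDKN1A, which encodes the cell cycle inhibitor p21 of the series title, was 1.47-fold higher (limma adjusted p = 0.00105). Background was gauged from 17 Tag control probe sets, designed against no human RNA, which averaged 2.27 to 4.60 on the controls. The 3′ minus 5′ log2 signal, a measure of RNA integrity, was -0.14 to -0.11 on control and -0.16 to -0.15 on knockdown arrays for GAPDH, slightly lower without overlap, and 0.38 to 0.45 and 0.41 to 0.46 for actin, with overlap. The part of this shift in the results was not tested. Bacterial hybridization controls were 0.28 log2 units higher on the knockdown arrays and poly-A controls 0.14 higher. Scaled to these sets, the median change over all probe sets moved from -0.013 to -0.29 and -0.15.

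All 6 IFIT probe sets rose on the knockdown arrays and 0 fell, by 15.6-fold for IFIT1, 11.0-fold for IFIT3, 10.1-fold and 4.97-fold for IFIT2 and 2.08-fold and 2.05-fold for IFIT5. On every probe set the lowest knockdown array lay above the highest control array. For comparison, 9.85% of the 49293 probe sets tested were called (limma adjusted p under 0.05), 4.59% as higher and 5.25% as lower. At the same threshold 0.278% were called higher and rose at least 2-fold, and 11.8% had knockdown arrays all above the controls. The RNA came from whole cultures, so more IFIT transcript in each cell and more cells that make it cannot be told apart.

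IFIT1, which binds improperly capped messenger RNA, was at 6.24, 6.14 and 6.14 log2 units on control replicates 1, 2 and 3 and at 10.27, 10.01 and 10.13 on the knockdown replicates. The controls lay within 0.10 of each other, and the gap between the groups was 3.77. The means were 6.17 ± 0.058 and 10.14 ± 0.13 (SD, n = 3 each), a log2 change of 3.96 ± 0.069 (SE, limma adjusted p = 9.69e-08). It ranked 2 of 49293 probe sets by the size of its rise. No Tag control probe set lay above its control mean. The probe set has the suffix _a_at, which marks probes that match several transcripts of 1 gene.

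IFIT3, the partner of IFIT1, was at 4.93, 5.24 and 4.88 on the controls and at 8.60, 8.38 and 8.46 on the knockdown arrays. Control replicate 2 was the high value among the controls, still 3.14 below the lowest knockdown array. The means were 5.02 ± 0.20 and 8.48 ± 0.11 (SD, n = 3 each), a log2 change of 3.46 ± 0.099 (SE, limma adjusted p = 1.67e-06), rank 6 of all probe sets. The only IFIT3 probe set has the suffix _x_at, which marks probes that can also bind similar sequences, and the IFIT genes are related in sequence. Whether the IFIT3 signal includes that of other members was not tested.

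IFIT2, which binds RNA rich in A and U, was measured by a brighter and a dimmer probe set. The brighter was at 4.90, 4.99 and 4.53 on the controls and at 8.26, 8.10 and 8.07 on the knockdown arrays, with control replicate 3 the low value. Its means were 4.81 ± 0.24 and 8.14 ± 0.10 (SD, n = 3 each), a log2 change of 3.34 ± 0.11 (SE, limma adjusted p = 3.37e-06). The dimmer was at 3.57, 3.72 and 3.81 on the controls and at 6.21, 5.96 and 5.87 on the knockdown arrays. Here control replicate 3 was the highest control, the reverse of its place on the brighter probe set. The dimmer changed by 2.31 ± 0.095 (SE, limma adjusted p = 8.21e-06), from a control mean of 3.70 that 1 of the 17 Tag control probe sets exceeded. The probe sets of IFIT2 therefore gave the same direction and sizes 1.02 ± 0.20 log2 units apart (SE; exact permutation test of the difference within arrays, 2-sided p = 0.1, the smallest that 3 against 3 arrays allow).

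The control means of both IFIT5 probe sets lay above all Tag controls, as did those of IFIT1, IFIT3 and the brighter IFIT2 probe set. IFIT5, which binds RNA with a triphosphate end, had the smallest rise of the 4 genes. On the brighter of its probe sets it was at 6.43, 6.56 and 6.60 on the controls and at 7.67, 7.51 and 7.57 on the knockdown arrays. The log2 change was 1.05 ± 0.062 (SE, limma adjusted p = 5.44e-05), with a gap of 0.91 between the groups. The other was at 5.37, 5.54 and 5.60 on the controls and at 6.57, 6.52 and 6.53 on the knockdown arrays. It changed by 1.04 ± 0.063 (SE, limma adjusted p = 6.37e-05). The changes on the probe sets of IFIT5 differed by 0.017 ± 0.036 log2 units (SE, exact permutation p = 0.7). The rises ranked 127 and 134 of all probe sets.

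**Figure D2:**
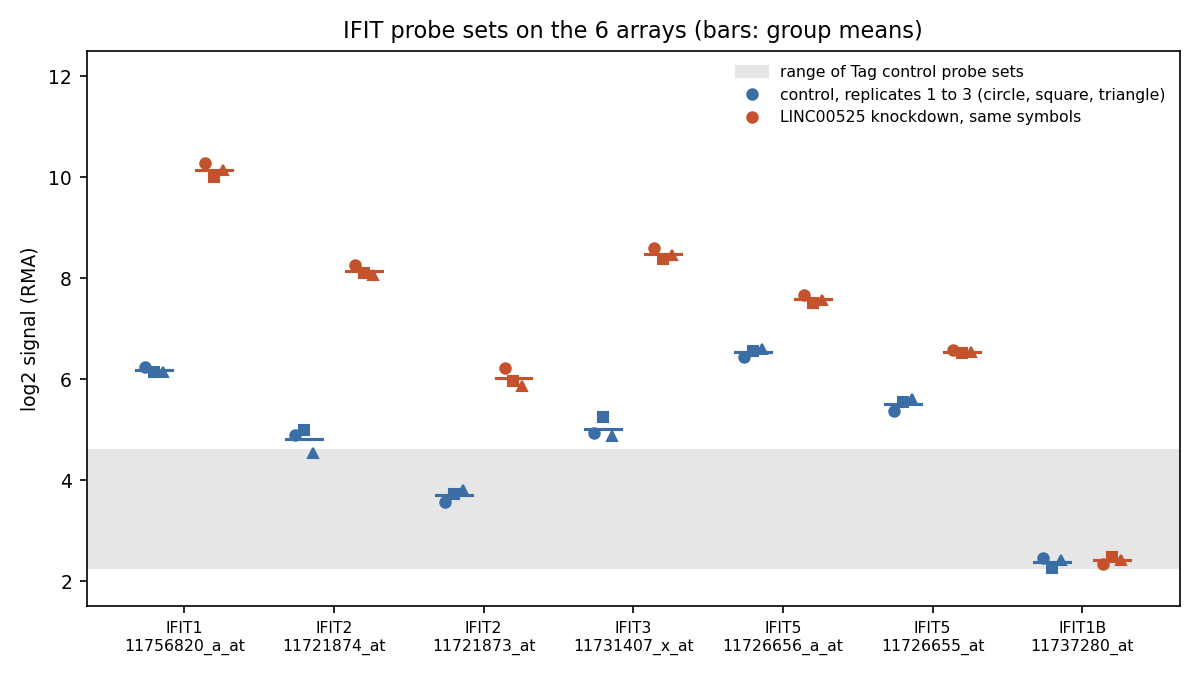
Log2 signal of the 6 IFIT probe sets and of IFIT1B on each array. Blue points are the 3 control arrays and orange points the 3 knockdown arrays, with circle, square and triangle for replicates 1, 2 and 3, short bars for group means and a grey band for the range of the Tag control probe sets (2.27 to 4.60). Every IFIT1, IFIT2, IFIT3 and IFIT5 probe set has its knockdown arrays above its controls, and IFIT1B lies near the bottom of the band in both groups.

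IFIT1B stood apart from its neighbours in the cluster. It was at 2.45, 2.26 and 2.41 on the controls and at 2.33, 2.48 and 2.42 on the knockdown arrays, so the groups overlapped. Its log2 change was 0.037 ± 0.064 (SE, limma adjusted p = 0.783). The control mean of 2.37 lay below those of 16 of the 17 Tag control probe sets, so this probe set gave no level above background in either group. The pseudogene IFIT1P1 is not analysed here.

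The order of the rises was IFIT1, IFIT3, IFIT2 and IFIT5, taking for each gene its brighter probe set. The change of IFIT1 was larger than that of IFIT3 by 0.50 ± 0.13 log2 units (SE), than that of IFIT2 by 0.63 ± 0.14 and than that of IFIT5 by 2.91 ± 0.089. IFIT3 and IFIT2, adjacent in this order, differed by 0.13 ± 0.10, and the within-array differences overlapped between the groups (exact permutation p = 0.3). IFIT5 rose less than IFIT3 by 2.41 ± 0.12 and less than IFIT2 by 2.28 ± 0.18. Of the 6 pairs compared, all but that of IFIT3 with IFIT2 had within-array differences that did not overlap between the groups, each with an exact permutation p = 0.1, the smallest possible, and 0.12 after Benjamini-Hochberg adjustment over the 6 pairs, so none passed a threshold of 0.05. When all probe sets of a gene were averaged, IFIT1 exceeded IFIT2 by 1.14 and IFIT3 exceeded IFIT2 by 0.64, since the dimmer IFIT2 probe set changed less.

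Among the knockdown arrays, replicate 1 had the highest value on all 6 IFIT probe sets. Relative to the control mean it was at 4.10 for IFIT1, against 3.84 and 3.96 on replicates 2 and 3. For the brighter IFIT5 probe set the same 3 values were 1.14, 0.98 and 1.04. The spread over the knockdown arrays was 0.05 to 0.34 log2 units on the 6 probe sets, and over the controls 0.10 to 0.46. On each probe set these spreads were smaller than the gap between the groups.

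**Figure D3:**
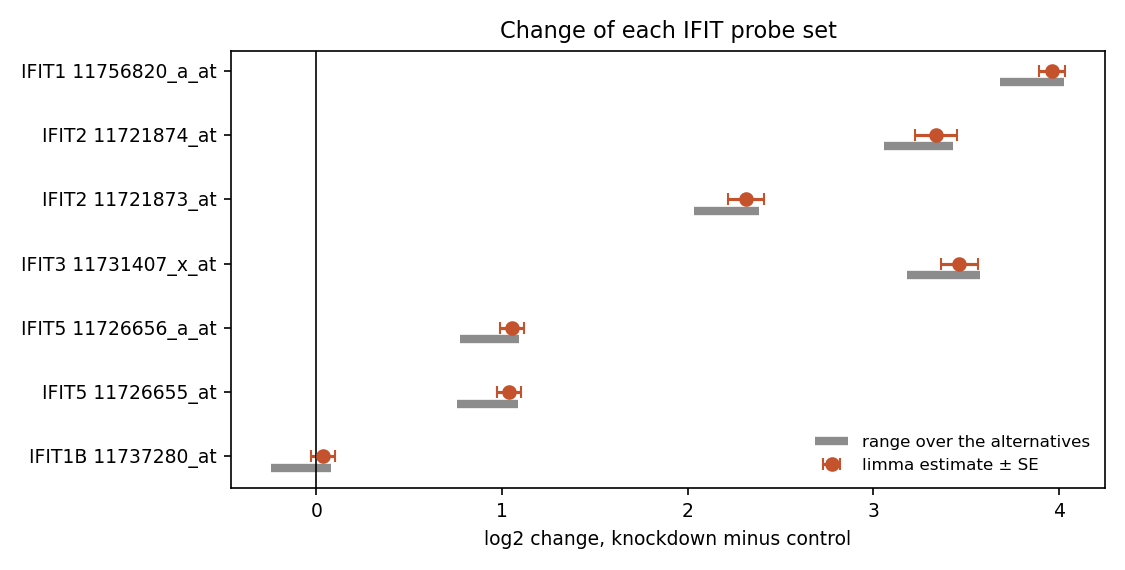
Log2 change, knockdown minus control, of each IFIT probe set and IFIT1B. Orange points with bars are limma estimates ± SE from 3 arrays per group, and grey bars span the values under the alternative settings, whose lower ends come from scaling to the hybridization controls. The IFIT1 bar runs from 3.68 to 4.03 and the lowest IFIT5 value is 0.76, while the IFIT1B bar crosses 0.

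The IFIT genes lie side by side on chromosome 10, in the order IFIT2, IFIT3, IFIT1B, IFIT1 and IFIT5, and the measured genes around them changed by 0.40 log2 units at most. The 6 protein-coding genes on each side were followed in the fit with 1 probe set per gene, in which 12.6% of 18132 genes were called, 5.77% as higher and 6.83% as lower. Of all genes 0.336% were called and rose at least 2-fold. Of 11 measured neighbours 4 rose and 1 fell, with a median log2 change of 0.047 against -0.013 over all genes. Those that rose lie before IFIT2: the deubiquitinase STAMBPL1 (0.37 ± 0.044 SE, limma adjusted p = 0.00214), smooth muscle actin ACTA2 (0.40), the death receptor FAS (0.34) and lysosomal acid lipase LIPA (0.15 ± 0.039). CH25H, which makes an antiviral oxysterol and lies between FAS and LIPA, was at -0.05. Its control mean was 2.43, with 14 of 17 Tag control probe sets brighter. After IFIT5, SLC16A12 was at 0.047 and PANK1 at 0.007, neither past the threshold. The control mean of SLC16A12 was 2.15, with all 17 Tag control probe sets brighter, so its value does not show whether its transcript changed. The RNase P subunit RPP30 fell by 0.18 ± 0.035 (SE, limma adjusted p = 0.0176). The LIPA call was lost whichever array was dropped (adjusted p between 0.0655 and 0.126). That of RPP30 was lost on dropping control replicate 2 or 3 or knockdown replicate 1 or 2 (0.0516 to 0.0618). The RPP30 call was also lost when its probe sets were averaged (-0.11, limma adjusted p = 0.289). Over all probe sets, 1 of 3 ACTA2, 1 of 2 FAS and 0 of 2 LIPA probe sets were called higher, and 1 of 3 RPP30 lower. Scaled to the hybridization controls LIPA was at -0.13, and the calls for STAMBPL1, ACTA2 and FAS were lost at 0.09, 0.12 and 0.06. ANKRD1, the farthest of the 6 genes after IFIT5, was at 0.37 without passing (limma adjusted p = 0.0840). Its control mean was 2.41, with 14 of 17 Tag control probe sets brighter. Of the 11 measured neighbours, 7 had control means above the highest Tag control.

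**Figure D4:**
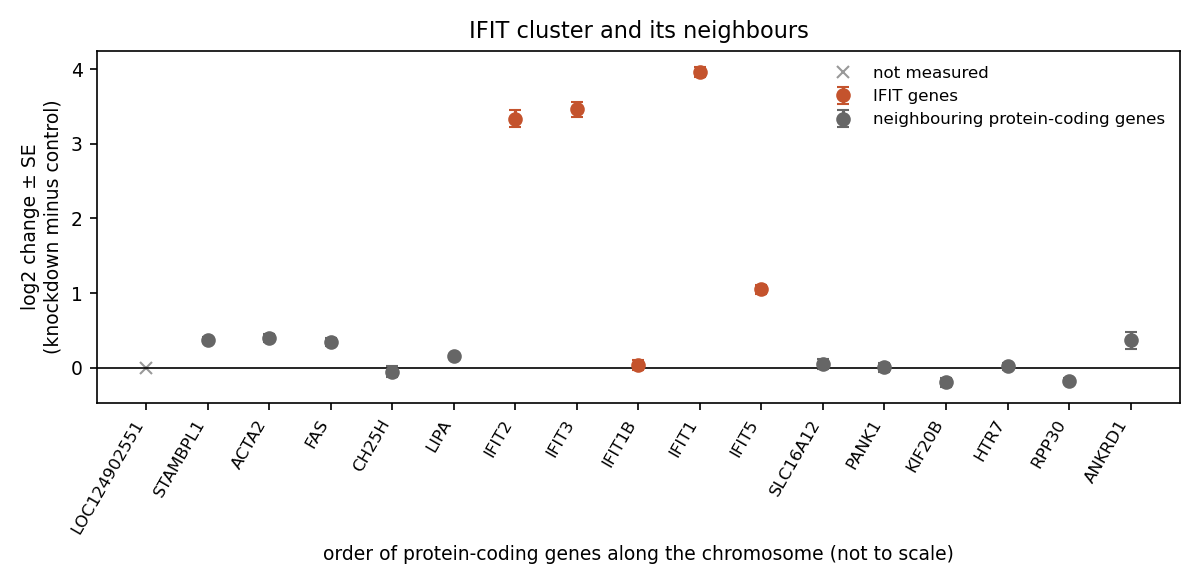
Log2 change ± SE (knockdown minus control, 3 arrays per group) of the protein-coding genes of the IFIT cluster (orange) and 6 genes on each side (grey), in their order along the chromosome and not to scale. A cross marks a gene that was not measured. IFIT2, IFIT3 and IFIT1 stand above 3, IFIT5 near 1.05, and IFIT1B and the measured neighbours lie between -0.19 and 0.40.

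In the RNA sensing pathway, the sensors IFIH1 and RIGI rose more than the sensors TLR3 and DHX58, whose calls depended on the setting. Most of the adaptors and kinases that relay their signal did not pass the test. Whether these changes came before, with or after the IFIT rises was not tested. Of 11 measured genes of RNA sensing 6 rose and 0 fell (median log2 change 0.28, against -0.013 over all genes). Over all genes 5.77% were called higher and 6.83% lower. In this list 1 gene was lower at an unadjusted limma p under 0.05. The share of all genes at that unadjusted threshold was not counted, here or for the lists below. IFIH1 rose by 2.94 ± 0.13 and RIGI by 2.63 ± 0.078 (SE), both helicases that sense viral RNA in the cytosol, and IRF7, an interferon-inducible transcription factor that can drive interferon genes, rose by 2.08 ± 0.086. TLR3, an endosomal RNA receptor, rose by 0.38, DHX58, a cytosolic relative of RIGI, by 0.38 and the TLR3 adaptor TICAM1 by 0.28. The IFIH1 probe sets ranged from 0.52 to 2.94, and of 4 DHX58 probe sets 1 was called. Some of these signals were low on the controls: TLR3 averaged 2.60, with 12 of 17 Tag control probe sets brighter, and 1 Tag control probe set was brighter than IFIH1 and DHX58. MAVS (-0.12), TRAF3 (0.093), TBK1 (0.063), IKBKE (0.050) and IRF3 (0.037) did not pass, although 3 of 7 MAVS probe sets were called lower over all probe sets. The TLR3 call was lost without knockdown replicate 2 or 3 (adjusted p = 0.0536 and 0.0519). Without variance moderation TLR3 and DHX58 did not pass (adjusted p = 0.0942 and 0.0581). Averaged over its probe sets DHX58 was at 0.13 and did not pass (limma adjusted p = 0.117). Scaled to the hybridization controls TICAM1 was at -0.001 and the calls for TLR3 and DHX58 were lost.

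Among interferons, their receptors and ISGF3, 4 of 13 measured genes rose and 0 fell, with a median of 0.11. Over all genes 5.77% were called higher and 6.83% lower. At an unadjusted limma p under 0.05 the counts were 8 and 0, a threshold at which the share of all genes was not counted. IRF9, the DNA-binding subunit of ISGF3, rose by 1.58 ± 0.049 (SE, limma adjusted p = 2.92e-06) and on each of its 4 probe sets, by 1.24 to 1.64. IRF1, a transcription factor that can also act at response elements, rose by 0.73. IFNLR1, the specific chain of the lambda interferon receptor, rose by 0.30, a call lost without control replicate 2 or knockdown replicate 1 or 2 (adjusted p of 0.0550 to 0.0678), and was at 0.019 when scaled to the hybridization controls. IFNB1, interferon beta, rose by 0.26 from 3.01, where 5 of 17 Tag control probe sets were brighter, and was at -0.025 when scaled to the hybridization controls. IFNL1 was at 0.26 without passing, from 3.07, where 5 of 17 Tag control probe sets were also brighter. The receptor chains IFNAR1 (0.083) and IFNAR2 (0.10) and the kinases JAK1 (0.12) and TYK2 (-0.073) did not pass, although 1 of 3 JAK1 probe sets was called higher over all probe sets (0.19). The remaining 5 of the 18 genes listed are not analysed here.

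Other interferon-induced genes whose proteins act on RNA rose with the IFIT genes: 9 of 10 measured, with 0 falls and a median of 0.97. Over all genes 5.77% were called higher and 6.83% lower. The list counts were the same at an unadjusted limma p under 0.05. OASL, an OAS-family protein without synthetase activity, rose by 2.38 ± 0.091 (SE), the helicase DDX60 by 2.22 ± 0.16 and OAS1, a synthetase that activates RNase L, by 1.67 ± 0.059. EIF2AK2, the RNA-activated kinase PKR, rose by 0.80 and the RNA editing enzyme ADAR by 0.41. ZC3HAV1, the zinc finger antiviral protein, was at -0.010, and 1 of its 4 probe sets was called higher (0.61 at most). OAS2 rose by 0.48 on its brightest probe set and by up to 1.88 on others. Its call was lost without control replicate 1 or 3 (adjusted p = 0.0513 and 0.0573). Scaled to the hybridization controls ADAR was at 0.13 and its call was lost.

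Of 10 measured genes that form or bind the cap that IFIT1 inspects, 1 rose and 3 fell, with a median of -0.048, where 5.77% of all genes were called higher and 6.83% lower. CMTR1, which adds the ribose methyl group that lets a capped RNA escape IFIT1, rose by 0.22 ± 0.043 (SE, limma adjusted p = 0.0165). CMTR2, which methylates the next nucleotide, fell by 0.25 ± 0.050, TGS1, which hypermethylates caps of small nuclear RNAs, fell by 0.21, and NCBP1, the large subunit of the nuclear cap-binding complex, fell by 0.20. The CMTR1 call was lost without control replicate 2 or 3 or knockdown replicate 1 or 3 (adjusted p of 0.0502 to 0.0626), and its change was -0.06 when scaled to the hybridization controls. The CMTR2 call was lost without control replicate 2 or knockdown replicate 1 or 3 (0.0572 to 0.0637). The TGS1 call was lost without control replicate 1 or 3 (0.0552 and 0.0570), and the NCBP1 call without control replicate 2 or 3 or knockdown replicate 2 (0.0635 to 0.0703). DUSP11, a phosphatase that removes phosphates from triphosphate RNA ends, was at 0.027.

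Translation initiation factors that work at the cap include the factor eIF3 that IFIT1 and IFIT2 can bind. They gave 0 rises and 1 fall among 16 measured genes, with a median of -0.007. The share that fell, 6.25%, was near that of all genes (6.83%), of which 5.77% were called higher. At an unadjusted limma p under 0.05 the counts were 0 and 3. The gene that fell was EIF3J, a loosely bound eIF3 subunit (-0.14 ± 0.036 SE, limma adjusted p = 0.0431), a call lost whichever of the 6 arrays was dropped (adjusted p between 0.0855 and 0.136), and 0 of its 2 probe sets were called over all probe sets. EIF3E, the eIF3 subunit named as a partner of IFIT proteins, was at 0.057.

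**Figure D5:**
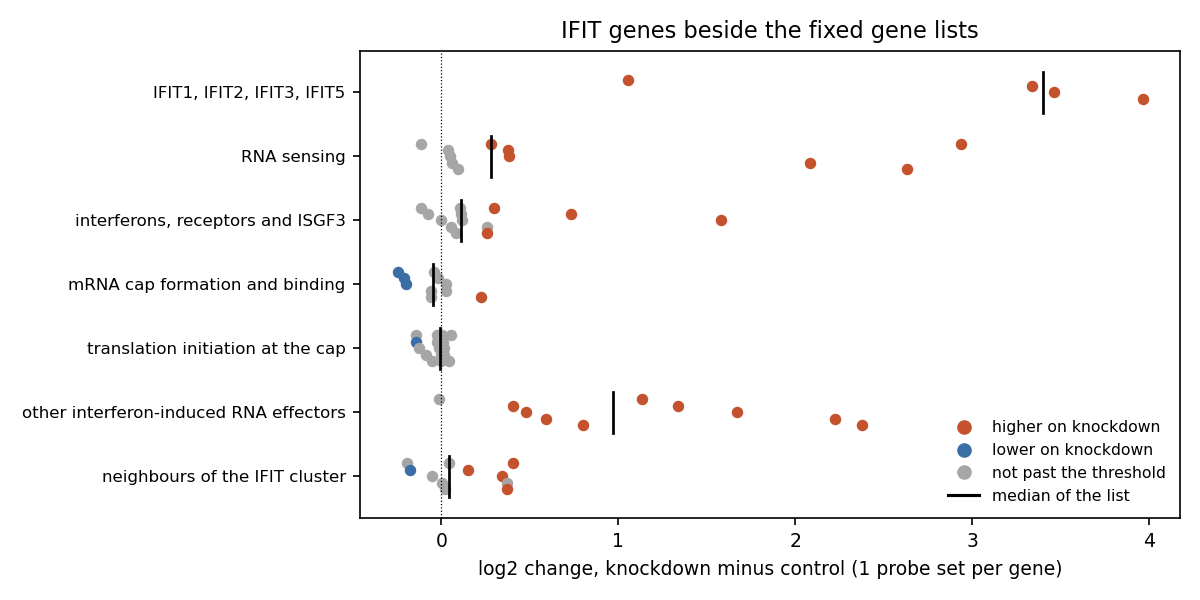
Log2 change (knockdown minus control) of the IFIT genes and of each measured gene of 6 lists, 1 probe set per gene. Orange points passed the threshold as higher, blue as lower and grey did not pass, and black bars are list medians. The IFIT genes lie at 1.05 to 3.96, the medians of RNA sensing and of the other RNA effectors are 0.28 and 0.97, and those of the cap and translation lists are -0.048 and -0.007.

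Genes whose values followed those of an IFIT gene most closely over the 6 arrays, each taken relative to its control mean, were other interferon-induced genes. Closest to IFIT1 were IFITM1, IFI27 and ISG15, with root mean square differences of 0.27, 0.37 and 0.39 log2 units. ISG15 lay 0.14 from IFIT2 and 0.14 from IFIT3, about as near as IFIT2 and IFIT3 lay to each other (0.13). After ISG15, IFI6 and IFITM1 were nearest to IFIT2 (0.23 and 0.26), and IFITM1 and IFI27 nearest to IFIT3 (0.15 and 0.20). IFIT5 was followed by a different set: PARP14, PLSCR1 and PARP12, at 0.054, 0.056 and 0.065. IFIT5 lay 1.62 to 2.06 from the other IFIT genes. This measure reads the size of the rise as well as its shape, and all points share the same 6 arrays.

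The promoter match seen in the IFIT windows was set against the changes of all genes. Windows were listed for 14425 of the 18132 measured genes, of which 5.82% rose and 0.360% rose at least 2-fold. Of the 599 genes with at least 1 match 14.9% rose, and 26 rose at least 2-fold (4.34%), as did 26 of the 13826 genes without a match (0.188%). The 599 include IFIT1, IFIT3 and IFIT5, in which the motif was picked. Without these IFIT genes 14.4% of 596 rose, and 23 rose at least 2-fold (3.86%). Of the 52 genes with at least 2 matches in a window, 23 rose (44.2%) and 13 rose at least 2-fold. These 13 include IFIT1, IFIT3 and IFIT5, and without them 20 of 49 rose and 10 rose at least 2-fold. The IFIT1 and IFIT3 version GAAAGTGAAA was held by 40 other measured genes, of which 10 rose and 0 rose at least 2-fold. The most similar genes differed in the same count: the windows of IFITM1, IFI27 and ISG15 held up to 2 matches and that of IFI6 held 3. Those of PARP14, PLSCR1 and PARP12, the genes nearest to IFIT5, held 1. The count did not order the rises within the family: IFIT5 held 3 matches and rose by 1.05, IFIT1 and IFIT3 held 2 and rose by 3.96 and 3.46. Of the 9 measured genes with at least 3 matches, IFIT5 among them, 4 rose and ATF5 fell (-0.36). These shares are descriptions, with no test, and genes with a match are not a random sample of genes.

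Markers of other cell types gave no calls. The epithelial markers of this carcinoma line were led by keratins, with KRT18 at 12.45 and KRT8 at 12.02 on the controls. Of 6 epithelial markers 1 rose, KRT19 (0.29, and 0.012 when scaled to the hybridization controls), and 1 fell, KRT8 (-0.15, limma adjusted p = 0.0474), a call lost whichever array was dropped (adjusted p between 0.0816 and 0.146). Of 8 measured leukocyte markers 0 were called, as were 0 of 6 fibroblast and 0 of 4 endothelial markers, where 12.6% of all genes were called. At an unadjusted limma p under 0.05, 1 leukocyte marker was lower and 1 fibroblast and 1 endothelial marker were higher. On the controls 4 leukocyte, 1 fibroblast and 2 endothelial markers lay above the highest Tag control. The summed signal of the leukocyte list, on the linear scale, was 235 to 243 on the controls and 226 to 234 on the knockdown arrays. PTPRC, the pan-leukocyte antigen, was at 2.32 and 2.44, with 16 of 17 Tag control probe sets above its control mean.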

How the data were processed

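Biotin-labelled cRNA of A549 cells was measured on 6 one-colour arrays, 3 per group as the titles name them. The authors deposited log2 values made with RMA, per the submitters' processing notes. The software behind RMA is not given in the sources used here. Array medians of 5.10 to 5.11 show a common scale, so no normalization was added, and log2 changes are relative to the typical probe set. Precision is limited by how few arrays there are.

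Of 49372 probe sets, 79 controls were left out of the test. Probe sets were named from the platform annotation, where 44988 had 1 symbol, 1832 several and 2473 none listed, and symbols were updated by gene identifier in the GRCh38.p14 gene table (44961 matched). The comparison used R 4.3.3 and limma 3.58.1 (lmFit, then eBayes, 2-sided, Benjamini-Hochberg over 49293 probe sets, adjusted p under 0.05). The design named a probe set fit for the IFIT genes and a second limma fit, with the brightest probe set of each of 18132 genes, for gene lists. Differences between IFIT genes were tested by exact permutation. The code was tested on simulated data.

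The IFIT genes and all lists were chosen with earlier results of these data known. Named were all IFIT probe sets, in each list the 3 largest rises and falls and all called members where 5 or fewer were called, and the 3 genes nearest to each IFIT gene by root mean square difference. Genes named without a call (MAVS, TBK1, CH25H, IFNAR1 and the like), TLR3, DHX58, TICAM1, EIF2AK2, ADAR and OAS2 were picked with their values in view, as was the promoter motif. No label says that the replicate numbers pair arrays, so numbers were not taken as pairs. Deviations of same-numbered arrays had correlations of -0.007 to 0.093, which cannot settle whether the arrays were paired. Control probe sets for human transcripts other than GAPDH, actin, rRNA and Alu were not used.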

Additional observations from a re-analysis of the deposited data

Results flagged for a closer look

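Control probe sets, which were left out of the test over probe sets, were higher on all 3 knockdown arrays than on all 3 controls in 3 sets. The 18 bacterial hybridization control probe sets averaged 9.22 ± 0.11 on control and 9.50 ± 0.045 log2 units on knockdown arrays (SD, n = 3 each), 0.28 higher. The 24 poly-A control probe sets were 0.14 higher. The 3 probe sets for 28S rRNA were 0.14 higher on average, with changes of -0.01 to 0.41 among them. In 3 other sets all knockdown arrays lay below all controls: 18S rRNA (-0.23), Alu (-0.067) and GAPDH (-0.043). These shifts are small beside the rises of IFIT1, IFIT2 and IFIT3. The IFIT5 rises fell below 2-fold when scaled to the hybridization controls (0.77 and 0.76 log2 units) or the poly-A controls (0.91 and 0.90). The part of the shifts in the smaller changes was not tested beyond the scaling given with the processing. No group has the 4 arrays needed to look for a single array far from the rest.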

How the results depend on the processing

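The rises of all 6 IFIT probe sets kept their direction and stayed past the threshold under every alternative run: cyclic loess, scaling to hybridization or poly-A controls, only probe sets above the Tag controls, trend and robust priors, no variance moderation, 1 probe set per gene (brighter probe sets only), the replicate block and leaving out each array. IFIT1 ranged from 3.68 to 4.03, the brighter IFIT2 probe set from 3.06 to 3.43, IFIT3 from 3.18 to 3.58 and the brighter IFIT5 probe set from 0.77 to 1.09. The highest adjusted p was 0.0156, for the dimmer IFIT5 probe set without variance moderation. After scaling to controls every probe set carries the same error of the control means, so calls under these settings are not independent of each other. IFIT1B was at -0.24 when scaled to the hybridization controls and was called lower (limma adjusted p = 0.0177). In that setting 40238 of the 49293 probe sets were called lower.

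List counts depended on the scaling, as did those over all 18132 genes. Scaling to hybridization controls gave 232 genes higher and 15085 lower, and scaling to poly-A controls gave 497 and 8397. Scaled to hybridization controls, called higher and lower were 3 and 4 for RNA sensing, 2 and 5 for interferons and receptors, 0 and 9 for the cap list, 0 and 16 for translation, 0 and 6 for the neighbours, and 1 other RNA effector was lower. Scaled to poly-A controls, lower were 1 RNA sensing gene, 3 of interferons and receptors, 7 of the cap list (0 higher), 9 of translation and 2 neighbours. With only probe sets above the Tag controls, 1 RNA sensing, 2 translation and 2 neighbour genes were lower. With trend and robust priors 3 translation genes and 2 neighbours were lower. Averaging probe sets gave 1 RNA sensing gene and 0 neighbours lower, cyclic loess 0 translation genes lower, and no moderation 0 cap genes higher. Leaving out 1 array gave 0 to 1 cap genes higher and 1 to 2 lower, 0 translation genes lower and 0 to 1 neighbours lower. The cause of these moves was not tested.

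With the replicate block, 1780 probe sets were higher and 1594 lower, against 2263 and 2590 without it. Under the replicate block 0 translation genes and 0 neighbours were lower, and no IFIT call changed. Values near the Tag controls (IFIT1B, IFNB1, IFNL1, TLR3, IFIH1, DHX58, CH25H, SLC16A12, ANKRD1, the dimmer IFIT2 probe set) are limited by signal over background.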
